A study of Homo sapiens with 8 samples.

Results

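The tryptophan-kynurenine genes described here are 8 genes named by symbol: KYNU, KMO, AFMID, IDO1, TDO2, HAAO, AHR and CYP1B1. Of these, 6 were matched to a row among the 32066 genes of the count table, by Ensembl identifier. IDO1 and TDO2 were not matched to a row and are not analysed here. RNA was measured in DU145, an established epithelial prostate carcinoma line from a brain metastasis, in 4 control libraries and 4 libraries from cells with exogenous SOX11, an HMG-box transcription factor that neural progenitors express. All libraries came from the same line in serum-containing medium, with no other treatment named in the labels. Which construct and promoter drove SOX11, what the control cells carried, and whether either group was 1 clone is not given in the sources used here. Nothing in the labels says that libraries of a group came from separate cultures, so p-values measure only the spread between these libraries, which may be technical.

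The kynurenine pathway breaks down tryptophan. IDO1 or TDO2 opens the indole ring, AFMID removes the formyl group to give kynurenine, KMO hydroxylates kynurenine, KYNU cleaves the side chain of kynurenine or 3-hydroxykynurenine, and HAAO opens the ring of 3-hydroxyanthranilate on the way to quinolinate and NAD. Kynurenine and its transamination product kynurenic acid are also ligands of AHR, the aryl hydrocarbon receptor, a transcription factor that induces CYP1B1 and CYP1A1. In many tissues IDO1, KMO and KYNU are known to respond to interferon and inflammatory cytokines, and TDO2 is mainly a liver enzyme.

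KYNU was the member with a large difference between the groups, and the members were listed with that difference known. The values of this contrast are therefore given as a description. No p-value is given for a member, and nothing is read from whether a member was called. Levels are given as CPM, the count scaled to the library total with TMM factors. KYNU ranked at position 6 from the lowest log2 fold change among the 14398 tested genes that averaged 1 CPM or more.

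Control libraries held 14641250 to 18706095 counts in total, and SOX11 libraries 15309037 to 16740516. The SOX11 transcript had 0 counts in each control library and 303 to 317 where the labels name exogenous SOX11. SOX11 replicate 1 stood apart from the other 7 libraries by transcripts of prostate luminal cells. It held 161 counts of KLK2, 95 of KLK3 (prostate-specific antigen) and 24 of TMPRSS2, a membrane protease. In the other libraries these genes reached at most 3, 4 and 1 counts. By a threshold chosen after seeing the data, 22 genes had at least 20 counts in SOX11 replicate 1 and at most 2 in every other library, against 0 such genes for each of the other libraries. Results below are given with and without this library where it changes a call or a value by much.

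**Figure D1:**
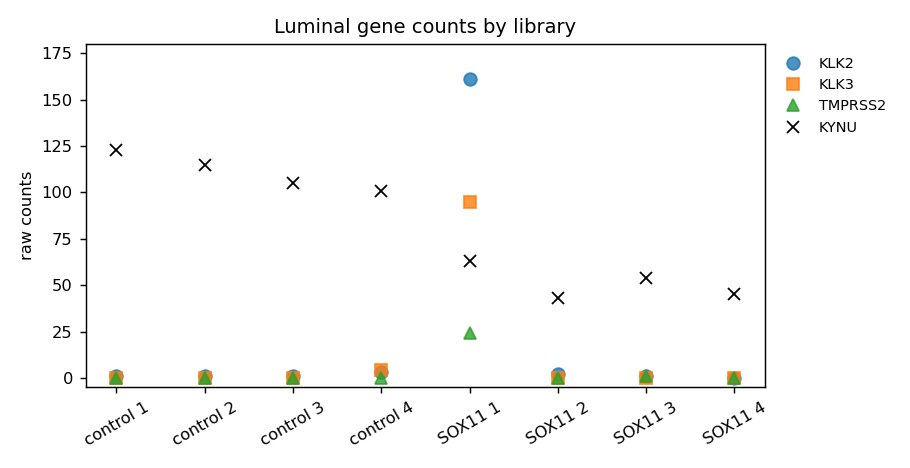
Raw counts of KLK2, KLK3 and TMPRSS2, and of KYNU for scale, in each of the 8 libraries. SOX11 replicate 1 holds 161, 95 and 24 counts of the luminal genes, while KYNU ranges from 101 to 123 counts over control and from 43 to 63 over SOX11 libraries.

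Markers of other cell types that express kynurenine enzymes were close to 0. Of 8 macrophage and dendritic cell markers 5 had a row, PTPRC had 0 to 2 counts, and their summed level was 1.03 to 1.28 CPM in control and 1.09 to 1.54 CPM in SOX11 libraries. Of 7 hepatocyte markers 6 had a row, with sums of 1.32 to 2.00 and 1.30 to 1.95 CPM. Endothelial markers, 5 of 6 with a row, summed to at most 0.832 CPM. The epithelial markers were abundant, with KRT18 at 6270 to 9827 counts and KRT8 and KRT7 above it in every library, and KRT5 was not matched to a row. Their sum was 3140 to 3640 CPM in control and 2740 to 2800 CPM in SOX11 libraries. Of the 7 tested, 5 were called lower, beside 9.67% of all tested genes. EPCAM (log2 difference 0.10) and CDH1 (-0.11) were not called. For fibroblast markers, 6 of 8 with a row, the sums were 3.33 to 5.43 CPM (control) and 5.84 to 7.71 CPM (SOX11). The difference came mostly from COL1A1, the only marker of this list that was tested, which was called higher (log2 difference 0.72). The rest held at most 6 counts per library and did not move together. COL1A2 was higher with SOX11 (0, 3, 0 and 0 against 5, 2, 6 and 6), and COL3A1 was lower (5, 4, 3 and 6 against 1, 0, 1 and 4). HEK293 line markers, 6 of 8 with a row, summed to 33.9 to 37.1 and 35.9 to 42.8 CPM. This sum came mostly from SALL2 (286 to 402 counts, log2 difference 0.21) and SALL4 (216 to 310 counts, 0.03). PAX8 had 4 to 17 counts per library, and PAX2, LIN28A and LIN28B had at most 2. The part of these differences in the results for the kynurenine genes was not tested. In bulk RNA, fewer expressing cells and less RNA per cell cannot be told apart.

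KYNU encodes kynureninase (ENSG00000115919) and lies on chromosome 2, from 142877498 to 143055832 on the plus strand of GRCh38, with 9 transcripts in GENCODE 29, the longest of 14 exons. Its upstream sequence is shown because KYNU carried the difference. The 84 bases before the first annotated start, chr2:142877414-142877497, plus strand, from the RefSeq promoter table on GRCh38.p14, hold none of the motifs searched and so carry no capitals.
KYNU upstream: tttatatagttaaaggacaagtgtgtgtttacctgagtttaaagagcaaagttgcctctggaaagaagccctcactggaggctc

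The motifs were searched on both strands in the whole promoter window, 250 bases before to 50 after the RefSeq start. They were the SOX core ACAAAG and its shorter relative ACAAT, the AHR core GCGTG, the AP-1 site TGANTCA and the interferon-stimulated response element. KYNU had 0 matches to each of the 5, which says only that these letters are not in this window. Of all 35116 promoters in the table, 16.1% held the SOX core, 27.4% the shorter SOX motif, 36.5% the AHR core, 7.71% the AP-1 site and 3.6% the interferon element. Of the 8 members, 6 had a promoter in the table (KYNU, KMO, AFMID, TDO2, HAAO and AHR). AHR held 1 match each to the SOX core, the shorter SOX motif and the AHR core. KMO held 4 to the shorter SOX motif, AFMID 1 to the AHR core and TDO2 1 to the AP-1 site.

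The AHR core is shown in CYP1A1 and TIPARP, target genes of AHR whose levels are given further on. Capitals mark the core or its reverse complement, with 10 bases on each side. The CYP1A1 stretch is chr15:74725571-74725595 on the minus strand. The TIPARP stretches are chr3:156674372-156674396 and chr3:156674438-156674462 on the plus strand, where the core lies on the opposite strand.
CYP1A1 core: agggaaggagGCGTGgccacacgta
TIPARP core 1: cgagaaaggaCACGCcccctcgcgg
TIPARP core 2: aacgaacgcgCACGCgcgcgcaggg
A match is a description of the letters and shows no binding.

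KYNU had 123, 115, 105 and 101 counts in control replicates 1 to 4, and 63, 43, 54 and 45 counts in SOX11 replicates 1 to 4. These are 7.86, 6.22, 7.21 and 7 CPM in control and 3.89, 2.54, 3.28 and 2.93 CPM in SOX11 libraries. Every SOX11 library was below every control library, with the highest SOX11 value in replicate 1, the library with the luminal transcripts. The means were 7.07 ± 0.674 CPM in control and 3.16 ± 0.571 CPM in SOX11 libraries (SD, n = 4 each), a log2 difference (SOX11 minus control) of -1.16 ± 0.133 (SE). Control cells thus held 2.23 times the KYNU level of SOX11 cells. Without SOX11 replicate 1 the log2 difference was -1.27 ± 0.142. The spread between control libraries (9.56% of the mean) was close to the 9.49% that counting alone gives at this depth, and that between SOX11 libraries was 18.1% against 14%.

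Of the 4 members that passed the filter on low counts (KYNU, AFMID, AHR and CYP1B1), 1 was called at an adjusted p below 0.05 by the quasi-likelihood test of edgeR, KYNU, as lower. Over all 15665 tested genes 20.0% were called, 10.3% higher and 9.67% lower in SOX11 libraries. KYNU was also the single tested member whose groups did not overlap, against 21.1% of all tested genes in either direction and 10.4% with SOX11 libraries lower. Since the contrast chose KYNU, nothing is read from these counts.

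AFMID, the formamidase one step before kynurenine (ENSG00000183077, chromosome 17, 78187317 to 78207701, plus strand), had 372, 398, 331 and 297 counts in control and 373, 429, 373 and 361 in SOX11 libraries. Its CPM values were 23.8, 21.5, 22.7 and 20.6 in control and 23.0, 25.4, 22.7 and 23.5 in SOX11 libraries, and the groups overlapped. The means were 22.2 ± 1.39 and 23.6 ± 1.2 CPM (SD, n = 4), and the log2 difference was 0.10 ± 0.0633 (SE). For each 100 AFMID counts there were 33.1, 28.9, 31.7 and 34.0 KYNU counts in control replicates 1 to 4. In SOX11 replicates 1 to 4 there were 16.9, 10.0, 14.5 and 12.5. This ratio needs no scaling between libraries, and it did not overlap between the groups.

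KMO, the kynurenine hydroxylase of the outer mitochondrial membrane (ENSG00000117009, chromosome 1, 241532134 to 241595642, plus strand), had 0 counts in every control library. It had 2 counts in SOX11 replicate 3 and 0 in SOX11 replicates 1, 2 and 4. A floor of 3 counts over a group, for counting error only, equals 0.0474 CPM in control and 0.0461 in SOX11 libraries. KMO lay below it in both groups, so it was not taken as detected at this depth and no fold is given. With 2 counts seen in SOX11 libraries, the floor is not an upper limit on its level there. OPN3, which overlaps it on the opposite strand, had 151 to 244 counts over the 8 libraries. HAAO, the dioxygenase after KYNU (ENSG00000162882, chromosome 2, 42767089 to 42792593, minus strand), had 13, 8, 3 and 6 counts in control and 10, 9, 14 and 6 in SOX11 libraries. At 0.471 ± 0.261 and 0.598 ± 0.193 CPM (SD, n = 4) its groups overlapped, and it did not pass the filter.

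AHR, the receptor (ENSG00000106546, chromosome 7, 16916359 to 17346152, plus strand), had 208, 209, 175 and 169 counts in control and 183, 215, 155 and 192 in SOX11 libraries. As CPM these were 13.3, 11.3, 12 and 11.7 against 11.3, 12.7, 9.43 and 12.5. The groups overlapped, with the lowest value in SOX11 replicate 3. Means were 12.1 ± 0.854 and 11.5 ± 1.51 CPM (SD, n = 4), with a log2 difference of -0.07 ± 0.0921 (SE), and 0.01 without SOX11 replicate 3. An antisense gene, AC073332.1, lies across it with 6 to 9 counts per library.

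CYP1B1, the AHR-inducible cytochrome P450 (ENSG00000138061, chromosome 2, 38066973 to 38109902, minus strand), had 589, 702, 506 and 529 counts in control and 655, 636, 697 and 602 in SOX11 libraries. Its CPM values were 37.6, 38, 34.8 and 36.7 in control and 40.4, 37.6, 42.4 and 39.2 in SOX11 libraries. SOX11 replicate 2 fell within the control range and the other 3 SOX11 libraries lay above it. Means were 36.8 ± 1.44 and 39.9 ± 2.01 CPM (SD, n = 4), a log2 difference of 0.12 ± 0.0519 (SE). CYP1B1-AS1 (16 to 31 counts) and RMDN2 (45 to 61 counts) overlap it on the opposite strand. Whether the counting used strand is not given in the sources used here.

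**Figure D2:**
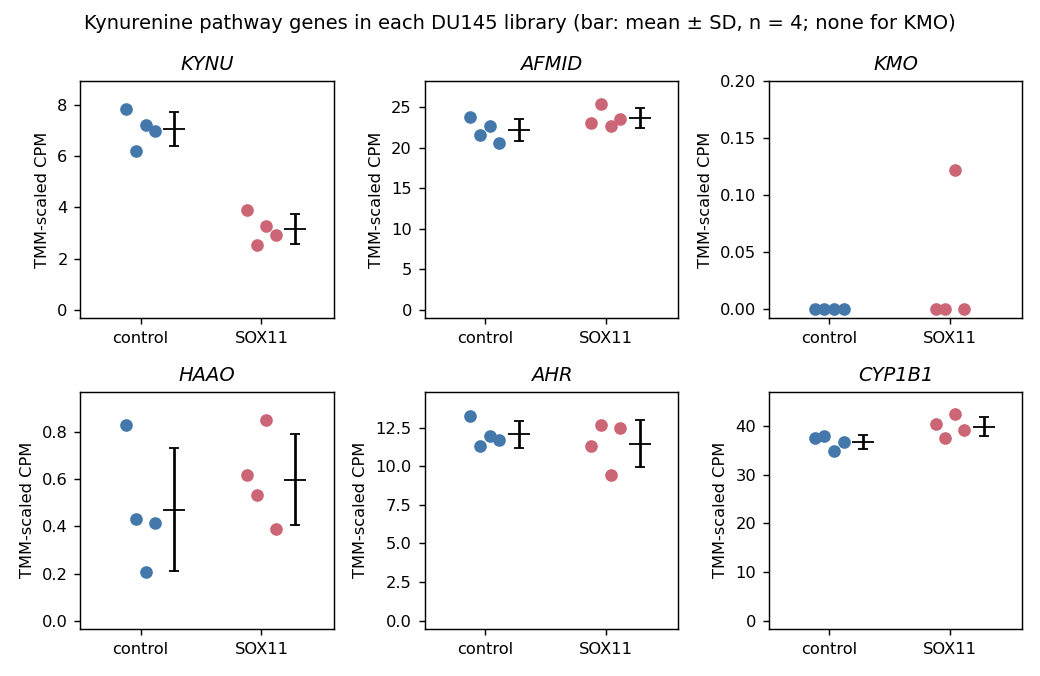
TMM-scaled CPM of the 6 genes with a row in each library, in panels with their own axes from 0, with mean and SD (n = 4) except for KMO. KYNU separates the groups, at 6.22 to 7.86 CPM in control and 2.54 to 3.89 in SOX11 libraries, while the groups overlap in the other 5 panels.

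Levels between genes were compared per kilobase of merged exons in GENCODE 29. In control libraries CYP1B1 was at 6.11 ± 0.237 CPM per kb, AFMID at 5.47 ± 0.345, AHR at 1.49 ± 0.107, KYNU at 0.402 ± 0.0384, HAAO at 0.173 ± 0.0956 and KMO at 0 (SD, n = 4). Neighbours in this order did not overlap in control except CYP1B1 (5.79 to 6.32) and AFMID (5.09 to 5.88). In SOX11 libraries KYNU, at 0.144 to 0.221 CPM per kb, overlapped HAAO at 0.143 to 0.313. The order depends on the length used. The merged KYNU exons span 17600 bases because of 1 transcript of 15316 bases, and with the median protein-coding transcript (802 bases) KYNU was at 8.82 CPM per kb, above AHR at 1.82. AFMID stood above CYP1B1 with the longest transcript (12.8 against 7 CPM per kb) and with the median one (36.5 against 20.1). With each of these lengths the control mean of KYNU stayed between those of AFMID and HAAO, while its place against AHR changed. With the longest transcript KYNU (0.406 to 0.513 CPM per kb) overlapped HAAO (0.135 to 0.545) in control. Which transcripts were made was not measured, so the order between genes is not fixed by these counts.

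**Figure D3:**
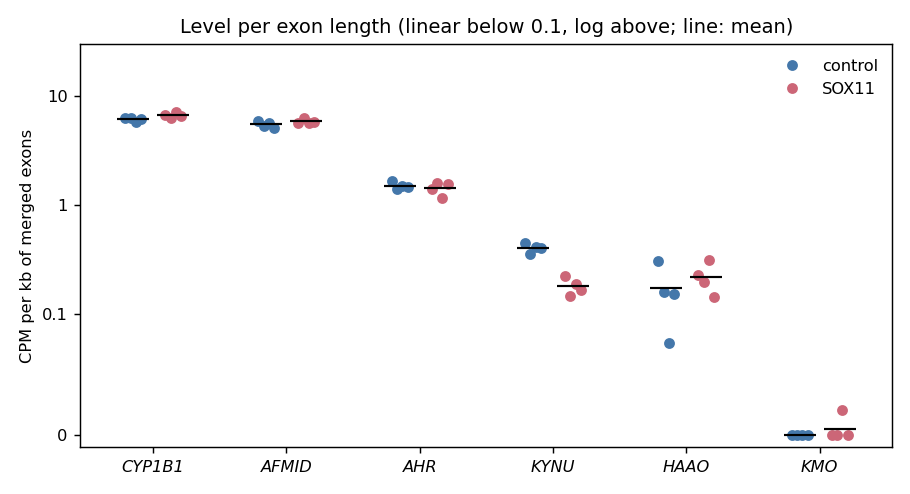
CPM per kilobase of merged exons for each library, in control and SOX11 groups, on an axis that is linear below 0.1 and logarithmic above, with lines at the means. In control KYNU lies at 0.353 to 0.447 CPM per kb, and in SOX11 libraries at 0.144 to 0.221, where it overlaps HAAO.

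The other genes of the pathway were taken from 5 lists, with the members left out, and were tested with edgeR over all genes. Of 93 listed genes 69 were tested, and 8 were higher and 10 lower in SOX11 libraries. That is 26.1% of those tested, beside 20.0% of all tested genes. Their median log2 difference was 0.00, as over all tested genes (0.001), and single differences ran from -0.37 to 0.47, all smaller than that of KYNU. The 18 calls became 10 without control replicate 2 (6 higher, 4 lower), 10 without control replicate 3 (5 and 5) and 12 without SOX11 replicate 1 (5 and 7). Of the 18 genes, 7 kept their call in each of 16 alternatives: ARNT2, NCOA7, PDXK and SLC38A1 as higher, and GOT2, NAPRT and NQO1 as lower.

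**Figure D4:**
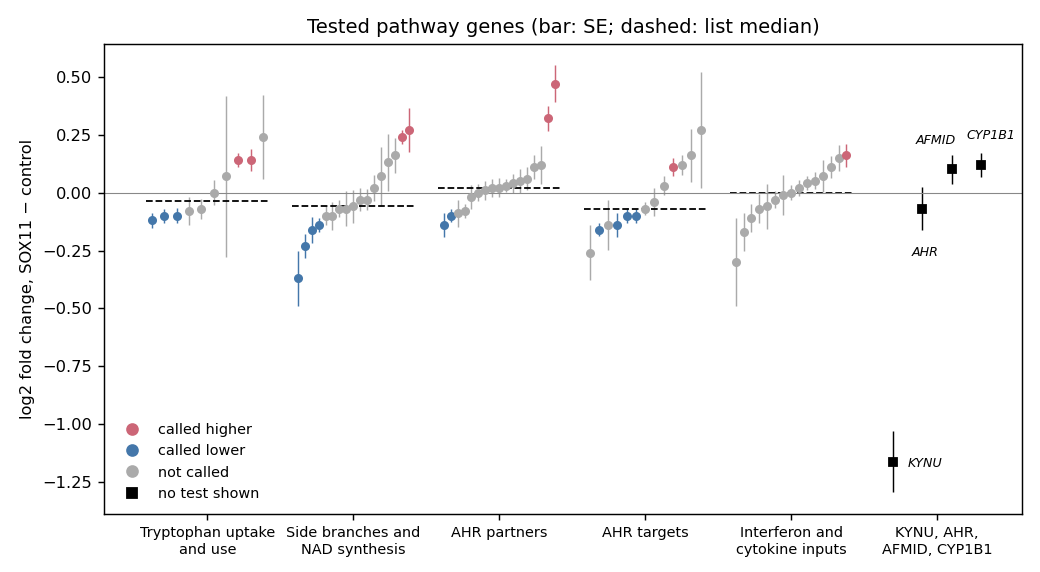
Log2 fold change (SOX11 minus control) with SE for the tested genes of 5 lists, coloured by the edgeR call, with the median of each list dashed, and for KYNU, AHR, AFMID and CYP1B1 as squares, shown without a test. Genes in more than 1 list appear in each. All tested list genes lie between -0.37 and 0.47, and KYNU lies at -1.16.

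Among genes of tryptophan uptake and competing use, 10 of 16 were tested, with 2 higher and 3 lower and a median log2 difference of -0.04. These calls made up 50% of those tested, beside 20.0% of all tested genes. The list and its calls include glutamine carriers, among them SLC1A5 and SLC38A1, so the counts do not stand for tryptophan uptake alone. SLC7A5 and SLC3A2, which form the LAT1 carrier of tryptophan and other large neutral amino acids, fell slightly. SLC7A5 went from 479 ± 11.9 to 447 ± 11.1 CPM (log2 difference -0.10 ± 0.03 SE, edgeR adjusted p = 0.02, n = 4 per group). SLC3A2 went from 232 ± 4.17 to 216 ± 5.31 CPM (-0.10, adjusted p = 0.0221). The groups did not overlap for either gene. The SLC7A5 call ended without control replicate 2 (edgeR adjusted p = 0.0537), 3 (0.0531) or 4 (0.0818), and the SLC3A2 call without control replicate 2 (0.0891) or 3 (0.0532) or SOX11 replicate 4 (0.0749). The glutamine carrier SLC1A5 fell by 0.12 on the log2 scale (adjusted p = 0.0126, but 0.0861 without control replicate 2). SLC38A1, another glutamine carrier, rose from 395 ± 13.0 to 433 ± 9.80 CPM (0.14, adjusted p = 0.00180). The call of SLC38A2 (0.14, adjusted p = 0.0466) ended without control replicate 2 (0.118), 3 (0.0561) or 4 (0.0894), SOX11 replicate 1 (0.149) or 2 (0.0840), and with upper quartile scaling (0.0540). WARS1, which charges tRNA with tryptophan, was at 156 ± 9.03 and 148 ± 8.93 CPM (adjusted p = 0.242, but 0.0299 without SOX11 replicate 2). SLC7A8, a related carrier, had 44 counts in SOX11 replicate 1 and at most 2 in any other library, and was not tested.

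The list of kynurenine side branches and onward NAD synthesis had 17 of 23 genes tested, with 2 higher and 4 lower and a median of -0.06. Its called share was 35.3%, beside 20.0% of all tested genes. PDXK, the kinase that makes pyridoxal phosphate, the cofactor of kynureninase and of the kynurenine aminotransferases, rose from 426 ± 16.9 to 504 ± 10.7 CPM (log2 difference 0.24 ± 0.0314 SE, edgeR adjusted p = 8.64e-07). PDXK had 6276, 7986, 6321 and 6309 counts in control and 8367, 8290, 8262 and 7782 in SOX11 libraries, and its CPM groups did not overlap.

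Of the aminotransferases that turn kynurenine into kynurenic acid, GOT2, better known as the mitochondrial aspartate aminotransferase, fell from 284 ± 7.43 to 258 ± 6.70 CPM (-0.14 ± 0.0315 SE, edgeR adjusted p = 0.00168). KYAT3 was at 20.2 ± 1.19 and 19.4 ± 1.85 CPM (adjusted p = 0.640) and AADAT at 6.48 ± 0.696 and 6.83 ± 1.41 CPM (adjusted p = 0.759). KYAT1 was not tested, at 4 to 10 counts per control library and 2 to 11 per SOX11 library.

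QPRT, which turns quinolinate into the NAD precursor, had at most 3 counts in any library and was not tested. IDO2 and ACMSD were not matched to a row and are not analysed here. NAPRT, which makes NAD from nicotinic acid, fell from 51.7 ± 3.36 to 44.1 ± 2.81 CPM (log2 difference -0.23 ± 0.0530 SE, edgeR adjusted p = 0.00182). NAMPT, the salvage enzyme for nicotinamide, was at 213 ± 16.6 and 199 ± 14.7 CPM (adjusted p = 0.306), but was called lower without control replicate 4 (0.0398), without SOX11 replicate 2 (0.0253) and with no filter on low counts (0.0337). NNMT, which methylates nicotinamide, was at 112 ± 6.88 and 104 ± 3.93 CPM (adjusted p = 0.0766), and was called lower without control replicate 4 (0.0207) or SOX11 replicate 2 (0.0321).

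Of the enzymes that join nicotinamide mononucleotide to the adenylyl group of NAD, NMNAT2 fell from 7.24 ± 0.911 to 5.62 ± 0.808 CPM (-0.37, edgeR adjusted p = 0.0292), and NMNAT3 rose from 7.54 ± 0.332 to 9.11 ± 0.682 CPM (0.27, adjusted p = 0.0421). The NMNAT2 call ended without control replicate 1 (0.0602), 2 (0.0865) or 3 (0.0897) or SOX11 replicate 4 (0.123), and with DESeq2 (0.0645). The NMNAT3 call ended in 10 of 16 alternatives, among them those without control replicate 1 (0.0538), 2 (0.108), 3 (0.0968) or 4 (0.0535) or SOX11 replicate 1 (0.142), 2 (0.0635) or 4 (0.0692), with no filter on low counts (0.0845) and with DESeq2 (0.117).

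Among AHR partners and regulators 17 of 18 genes were tested, with 2 higher and 2 lower and a median of 0.02. The share called was 23.5%, beside 20.0% of all tested genes. ARNT2, a paralog of the AHR dimer partner ARNT, had 207, 248, 169 and 175 counts in control and 273, 268, 299 and 292 in SOX11 libraries. It rose from 12.6 ± 0.868 to 17.5 ± 1.40 CPM (log2 difference 0.47 ± 0.0786 SE, edgeR adjusted p = 5e-05), with no overlap between the groups. ARNT itself was at 91.1 ± 0.683 and 92.6 ± 4.68 CPM (adjusted p = 0.746). The coactivator gene NCOA7 rose from 92.7 ± 7.54 to 116 ± 7.66 CPM (0.32, adjusted p = 0.000302). PTGES3, the p23 co-chaperone of the receptor complex with HSP90, fell by 0.10 on the log2 scale (adjusted p = 0.0174, but 0.0660 without SOX11 replicate 1 and 0.0514 without control replicate 3).

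Of 20 AHR target genes 13 were tested, with 1 higher and 4 lower and a median of -0.07. Calls were made for 38.5% of those tested, beside 20.0% of all tested genes. The list shares AHRR and TIPARP with the partners and SLC7A5 and SLC3A2 with the uptake genes. CYP1A1 had 99, 112, 73 and 77 counts in control and 107, 101, 100 and 106 in SOX11 libraries. At 5.68 ± 0.611 and 6.39 ± 0.438 CPM it was not called (log2 difference 0.16, edgeR adjusted p = 0.359). AHRR, the AHR repressor, had 1 to 7 counts per library and was not tested. TIPARP, an ADP-ribosyltransferase that restrains AHR, went from 46.2 ± 1.94 to 42 ± 2.29 CPM (-0.14, adjusted p = 0.0483).

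The TIPARP call ended in 10 of 16 alternatives, the most of the called genes of this list. Among them were those without control replicate 1 (edgeR adjusted p = 0.111), 2 (0.0668) or 4 (0.135) or SOX11 replicate 1 (0.0804), 2 (0.143) or 3 (0.103), and those with upper quartile scaling (0.0625), DESeq2 (0.0955) and limma-voom (0.0507). NQO1, a quinone reductase that NRF2 also induces, fell from 1040 ± 31.3 to 929 ± 8.77 CPM (-0.16 ± 0.0288 SE, edgeR adjusted p = 8.69e-05). FOSL2, an AP-1 subunit, rose by 0.11 on the log2 scale (adjusted p = 0.0294). Its call ended without control replicate 1 (0.0803) or 3 (0.0978) or SOX11 replicate 1 (0.0556), 3 (0.127) or 4 (0.127), and with DESeq2 (0.0599).

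Interferon gamma and cytokine inputs had 15 of 20 genes tested, of which 1 was called, and a median of 0.00. That is 6.67% of those tested, beside 20.0% of all tested genes. STAT2, which acts in type I interferon signalling, rose from 59.8 ± 3.96 to 66.6 ± 4.30 CPM (0.16, edgeR adjusted p = 0.0241). The STAT2 call ended without control replicate 2 (0.141) or 4 (0.0589) or SOX11 replicate 1 (0.0626) or 2 (0.0886).

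Few genes near KYNU were matched to a row. Within 500 kb of the gene GENCODE 29 places 17 other genes, mostly pseudogenes, and 1 of them, the pseudogene AC013444.1, was matched to a row, with 2 counts in control replicate 1 and 0 in the others. It did not pass the filter on low counts. The others, among them AC013444.2, a pseudogene that lies within KYNU on the opposite strand, are not analysed here.

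The genes whose log2 CPM over the 8 libraries was most like that of KYNU were PSMB8 (Pearson r = 0.990), CLMP (0.985), ZNFX1 (0.983), MVP (0.981) and REEP5 (0.981). These correlations mostly restate the difference between the groups, which all 5 genes share with KYNU. With the group means removed, the same correlations of the deviations over 8 libraries were 0.916, 0.832, 0.827, 0.821 and 0.923. PSMB8, an immunoproteasome subunit, went from 17 to 12 CPM (log2 difference -0.50), and CLMP, an adhesion molecule of tight junctions, from 16.7 to 10.0 CPM (-0.74). MVP, the major vault protein, was at 66.8 CPM in control, with a difference of -0.42. The differences of ZNFX1 (133 to 109 CPM) and REEP5 (69.7 to 63.3 CPM), which helps shape the endoplasmic reticulum, were -0.29 and -0.14. The genes were picked from all tested genes of 1 CPM or more for these correlations, so no test is given.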

How the data were processed

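The values deposited by the authors are raw counts, 1 row per Ensembl gene and 1 column for each of 8 libraries, with no normalization, per the file headers and values. Per the submitters' processing notes, cutadapt, FastQC, STAR 2.7.0e and GRCh38 were used. What counted the reads, with which strand setting and annotation, is not given in the sources used here. Symbols matched 32053 of 32066 identifiers. From the counts, filterByExpr (minimum count 10) left 15665 genes, tested with edgeR 4.0.16 in R 4.3.3 (quasi-likelihood F-test, robust fit, TMM factors, group only) with Benjamini-Hochberg adjustment over all of them. SE is the log2 fold change divided by the root of F. Alternatives used DESeq2 1.42.0, limma-voom (limma 3.58.1), other scalings and filters, a term for replicate number, and fits without each library in turn. Positions and lengths come from GENCODE 29, promoters from RefSeq on GRCh38.p14.

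Members and lists were chosen with earlier results of these data known. Named genes were the members, up to 4 called genes per list by smallest adjusted p, a fixed set of enzymes, carriers, receptor partners and targets, and the 5 genes most like KYNU. SLC38A2 and NMNAT3 joined them once their values had been seen. A few listed genes are not reported here. Within-group chi-square per degree of freedom was 1.39 to 3.01, so no libraries were counted as repeats.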

Additional observations from a re-analysis of the deposited data

Results flagged for a closer look

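Values were set against the other libraries of their group, and those far from the rest by Dixon's criterion for 4 samples are given here. Of 82 groups of 4 checked, 9 stood out. Chance marks about 1 in 20 for continuous values, but a group with counts in a single library is always marked. The number that stood out is therefore not compared with this rate. The luminal genes and SLC7A8 were checked because their values in SOX11 replicate 1 had been seen.

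SOX11 replicate 1 held KLK3 at 5.86 CPM (others 0), KLK2 at 9.93 CPM (0 to 0.118), TMPRSS2 at 1.48 CPM (0 to 0.0608) and SLC7A8 at 2.71 CPM (0 to 0.0651). Control replicate 4 held KLK3 at 0.277 CPM (others 0) and KLK2 at 0.208 CPM (0.0541 to 0.0687), which are 4 and 3 counts. The part of these transcripts in the other results was not tested.

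KMO in SOX11 replicate 3, at 0.122 CPM against 0 in the others, is 2 counts. QPRT in SOX11 replicate 4 was 0 against 0.0591 to 0.0617 CPM, a difference of 1 count. PDXK in control replicate 1 was 401 CPM against 432 to 437 in the other control libraries, still below every SOX11 library.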

How the results depend on the processing

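The KYNU log2 difference stayed between -1.27 and -1.06 with each library left out, and between -1.16 and -1.15 under the other scalings, filters and tests. The 3130 calls over all genes were 2407 with DESeq2 and 2466 to 3057 with a library left out. The 18 calls among the wider pathway genes were 10 to 21 with a library left out, 10 without control replicate 2 and 10 without control replicate 3, in fits with fewer samples. The AHR log2 difference, not called, changed sign without SOX11 replicate 3 (0.01). No scaling moved the median of all genes by over 0.1. Same-numbered libraries were not paired by their deviations (correlations 0.063, -0.068, -0.041 and 0.109), and not every library correlated best with its own number. With the replicate block the calls were 2899 over all genes and 15 among the wider genes, and KYNU was at -1.16. The block ended the calls of TIPARP (adjusted p = 0.0535) and NMNAT3 (0.0523) among named genes. KMO and HAAO had too few counts for a difference to be shown.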
